A study of Mus musculus with 9 samples.

Results

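Heat shock chaperone genes of the cytosol and mitochondria were followed in regulatory T cells (Tregs) of mice with collagen-induced arthritis. The 10 genes, of 23420 in the expression table, were taken by symbol: Hspa1a, Hspa1b, Hspa8 and Hsph1 of the HSP70 and HSP110 families, the J-domain genes Dnaja1 and Dnajb1, the HSP90 genes Hsp90aa1 and Hsp90ab1, and the mitochondrial chaperonin genes Hspd1 and Hspe1. RNA was sequenced from 9 libraries in 3 groups of 3. The synovial Tregs and the Tregs of the draining lymph node ("arthritic node") came from arthritic mice, and the remaining group was draining lymph node Tregs of mice given no treatment ("control node"). All mice were labelled WT and carried a YFP reporter of Foxp3, the transcription factor that defines Tregs, on which the cells were sorted after digestion of paws or nodes. The titles number separate mice. Synovial and arthritic node libraries with the same number were read as coming from the same animal. Strain, sex, age and time after induction are not given in the sources used here, and control mice contributed no synovial library, so that disease and tissue can be separated only between nodes or within arthritic mice.

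Heat shock chaperones bind unfolded or newly made proteins and keep them from aggregating. HSP70 proteins cycle on and off their clients: J-domain proteins deliver the client and trigger ATP hydrolysis, nucleotide exchange factors such as the HSP110 protein release it, and HSP90 acts later on kinases and receptors. In the nucleus the transcription factor HSF1 is held inactive by chaperones and, when unfolded proteins occupy them, binds heat shock elements, inverted repeats of the unit GAA in the promoters of chaperone genes. Some family members are constitutive, such as Hspa8 and Hsp90ab1, while Hspa1a and Hspa1b are the classic strongly inducible ones. In T cells, heat shock genes are also known to respond to activation.

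The libraries held 11300406 to 12855435 reads over genes, and 3 reads corresponded to normalized values of 2.61 to 3.52. All 7 Treg markers, among them Foxp3, Cd4, Il2ra and Ctla4, had reads in every group. Their summed values were 119558 to 123403 in synovium, 56565 to 65010 in arthritic nodes, with 64126 to 65398 in control nodes. Markers of other cells took small shares, the largest being fibroblast markers at 0.0215% to 0.0468% of all normalized counts in synovium, with 9 of 9 markers read, against 0.0331% to 0.0417% in arthritic nodes, with 7 of 9. Thy1 and Prg4 made up most of these sums. Thy1 was at 2653 to 3311 over the 9 libraries. Prg4 was at 314 to 761 in synovium, against 953 to 1164 in arthritic nodes, with 968 to 1412 in control nodes. Between groups the sums therefore do not follow the matrix genes of the list and are no measure of fibroblasts. Within synovium the largest share, 0.0468%, was that of library 3. Synovial library 3 stood apart in the matrix genes of this list and was the highest synovial library for 9 of 9 markers. Arthritic node library 3 was likewise the highest of its group, at lower values of the matrix genes, for 7 of the 7 markers read there. Dcn, for example, was at 16.5, 25.8 and 455 in synovium, 0, 0 and 41.1 in arthritic nodes, with 0, 0 and 0.913 in control nodes. Without synovial library 3, Hspa1a was higher in synovium than in arthritic nodes by 10.30 and Hspa1b by 7.17 on the log2 scale (limma adjusted p = 0.000101 and 0.000941). Then 9 of the 10 genes were called, all higher, where 1837 of 11282 genes tested were called higher. Dendritic cell markers summed to 899 to 1078 in synovium, with 4 of 6 read and Clec9a and Itgax at 0, against 24.1 to 82.1 in arthritic nodes, with 38.1 to 62.1 in control nodes. Xcr1 and Zbtb46 carried this sum, while Flt3 and Siglech were at 0 in synovial libraries 2 and 3. Mast cell markers summed to 667 to 1047 in synovium, with Mcpt4 and Cma1 at 0, against 45.2 to 130 in arthritic nodes, with 77.3 to 134 in control nodes. Kit and Hdc carried that sum, while Cpa3 was at 4.41, 0 and 14.6 in synovium, 34.8, 16.4 and 35.8 in arthritic nodes, with 22.1, 37.9 and 59.3 in control nodes. CD8 T and NK cell markers summed to 1750 to 2627 in synovium, with Cd8a and Ncr1 at 0, against 759 to 1174 in arthritic nodes, with 946 to 1450 in control nodes and Ncr1 at 0 in both node groups, most of it Nkg7. The genes that carry the dendritic, mast and CD8 T and NK cell sums move with the tissue difference described here, and their part in it was not tested. In bulk RNA, fewer cells of a type and less RNA per cell cannot be told apart.

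Hspa1a and Hspa1b lie next to each other on mouse chromosome 17, on the minus strand, at chr17:34969190-34972156 and chr17:34956436-34959238 (GRCm38), each as 1 exon. Their coding sequences align over 1926 positions with 8 substitutions and 3 gap positions, an identity of 99.4%. Of the 50-base windows of the Hspa1a transcript, 58.8% also occur in Hspa1b, whereas in the 3' UTR of Hspa1a 0.380% do. How the counting treated reads that match both genes is not given in the sources used here, so the split between them is uncertain. The sum of both genes is given as well, but it too would miss such reads if they were discarded. The promoters are nearly the same too: 247 of the 250 bases before the start site, or 98.8%. The stretch below, from 135 to 56 bases before the start site, is shared letter for letter and is shown because it holds the only exact heat shock element pair in that window, in capitals (RefSeq, GRCm38.p6, chr17:34972212-34972291, minus strand, for Hspa1a, and chr17:34959294-34959373 for Hspa1b).
Hspa1a and Hspa1b: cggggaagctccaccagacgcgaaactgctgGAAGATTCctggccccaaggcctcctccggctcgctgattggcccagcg

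The element was searched on both strands as 2 inverted units, GAANNTTC or TTCNNGAA, and as 3 units, the same pair followed after any 2 bases by a unit turned the other way, in the 250 bases before the start site. The 3-unit form contains the 2-unit form. RefSeq promoter entries were found for 7 of the 10 genes. A gene can have several entries, and these 7 had 12. The exact pair was in 7 of the 12 entries, against 12.8% of all 32851, and 3 units with at most 1 mismatch were in the same number, against 6.08%. Counted by gene, each form was in at least 1 entry of 6 of the 7, against 14.5% and 6.86% of all 27025 genes. The exact 3 units were in 1 entry each of Hspd1 and Hspe1, 2 of the 12, against 0.466% of all entries. The entries are not independent, since those of Hspa1a and Hspa1b are near copies and the 2 entries of Hsph1 hold the same element. Hspd1 and Hspe1 are divergent neighbours, so that their match is in 1 shared region. Neither form was found in the entries of Dnajb1. A match is a description of letters and not a binding site. Stretches around the elements of 3 genes are shown, with the repeats in capitals. They come from chr1:55088053-55088082 (plus strand, Hspe1), chr4:40722333-40722362 (plus strand, Dnaja1) and chr5:149636351-149636380 (minus strand, Hsph1). Each of these stretches overlaps an annotated exon. The spacing of 2 bases between units is set by the search.
Hspe1: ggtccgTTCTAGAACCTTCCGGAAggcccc
Dnaja1: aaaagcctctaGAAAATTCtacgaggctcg
Hsph1: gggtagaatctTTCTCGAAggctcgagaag

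The inducible HSP70 genes were close to absent from node Tregs and abundant in synovial Tregs. Hspa1a had normalized read counts of 9325, 11453 and 13698 in the 3 synovial libraries, 18.3, 27.9 and 0 in the arthritic node libraries, and 0 in all 3 control node libraries. All synovial libraries were far above all node libraries. The synovial mean was 747 times the arthritic node mean, and on the log2(value + 1) scale used for all tests the difference was 10.43 ± 0.99 (SE, n = 3 each, limma with Benjamini-Hochberg adjustment over 11357 genes, adjusted p = 7.55e-06). The ratio rests on few node reads: it was 498 without arthritic node library 3 and 1259 without library 2, and the log2 difference ranged from 8.91 to 11.34 with 1 library left out. Against control nodes, where no read was found, Hspa1a was at least 4076-fold higher, taking 3 reads per library as the floor. Between nodes the 50 reads of the arthritic libraries, from 2 of 3 mice, made Hspa1a at least 5.46-fold higher than in control nodes. That difference was not called (3.04 ± 0.99, limma adjusted p = 0.345), but without arthritic node library 3, the one at 0, it was (4.56, adjusted p = 0.00715). The exons of Hspa1a overlap those of Gm20481 on the opposite strand over 564 bp, and the strand setting of the counting is not given.

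Hspa1b, at 174, 184 and 236 in synovium, carried 1.58% to 1.83% of the pair's synovial counts. Arthritic nodes held 1 read of it in all, in library 2, and control nodes none. The synovial 525 reads against that 1 read gave a ratio of normalized means of 618 with a 95% counting interval of 118 to 26147, and the fitted difference was 7.30 ± 0.93 (SE, n = 3 each, limma adjusted p = 7.85e-05). The sum of both genes was 9499, 11637 and 13934 in synovium, against 18.3, 28.9 and 0 in arthritic nodes, a difference of 10.44 ± 0.99 (limma adjusted p = 7.60e-06). It was at least 4146-fold higher in synovium than in control nodes. Hspa1b passed the filter on low values, a mean of 10, only through synovium, and Hspa1a did so too, so their being called adds nothing to the counts below.

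Hspa8, the constitutive HSP70 of the cytosol (chr9:40800984-40810087, plus strand), was among the highest of these genes in every group. It had 41658, 60255 and 28519 normalized counts in synovium, 27202, 30130 and 20122 in arthritic nodes, with 20753, 19631 and 18214 in control nodes. Synovial library 3 lay within the range of the arthritic nodes, while the synovial libraries were apart from the control nodes. Hspa8 was higher in synovium than in arthritic nodes by 0.71 ± 0.22 (limma adjusted p = 0.0269), a call lost without synovial library 1 or 2 or arthritic node library 1 or 3 (adjusted p = 0.0661, 0.0879, 0.0528 and 0.117), and under quantile normalization (a log2 difference of 0.13). Over control nodes it was higher by 1.09 ± 0.22 (adjusted p = 0.00197). Within mice 1, 2 and 3, synovium had 1.53, 2.00 and 1.42 times the node value.

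Hsph1 encodes the HSP110 protein that exchanges nucleotide on HSP70 (chr5:149614287-149636376, minus strand). Of the genes read in every library it varied most among the synovial and among the arthritic node libraries, with 4190, 8715 and 2719 normalized counts in synovium, 2923, 3052 and 1109 in arthritic nodes, with 1828, 1265 and 1618 in control nodes. The synovial and arthritic node ranges overlapped. The difference between them, 1.11 ± 0.41, was not called (limma adjusted p = 0.0557). With the mouse as a block it was (adjusted p = 0.00163, where 18.7% of all genes were called higher), and synovium had 1.43, 2.86 and 2.45 times the node value of mice 1, 2 and 3. Leaving out synovial library 3 also gave a call (1.49, adjusted p = 0.0165), as did leaving out arthritic node library 2 (1.36, adjusted p = 0.0470). Over control nodes Hsph1 was higher by 1.58 ± 0.41 (adjusted p = 0.00928).

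Both J-domain partners of HSP70 rose in synovium over either node group. Dnajb1, a co-chaperone that delivers clients to HSP70 (chr8:83608193-83612653, plus strand), had 10989, 14390 and 13629 normalized counts in synovium, 4698, 5482 and 2765 in arthritic nodes, with 2813, 2445 and 1923 in control nodes. Synovial libraries were apart from both node groups, while arthritic node library 3 lay within the control range. The synovial excess over arthritic nodes was 1.64 ± 0.22 (limma adjusted p = 0.000131) and over control nodes 2.45 ± 0.22 (adjusted p = 3.84e-06). Between nodes, Dnajb1 differed by 0.81 ± 0.22, which limma did not call (adjusted p = 0.229) and DESeq2 on the recovered reads did (0.85, adjusted p = 0.0114).

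Dnaja1, the other J-domain gene (chr4:40722150-40737149, plus strand), had 9910, 13287 and 6975 normalized counts in synovium, 5032, 4971 and 2851 in arthritic nodes, with 3139, 2717 and 2620 in control nodes. Again the synovial libraries stood apart from all node libraries. The differences were 1.23 ± 0.24 over arthritic nodes (limma adjusted p = 0.00176) and 1.79 ± 0.24 over control nodes (adjusted p = 9.01e-05). Its exons overlap those of Smu1 on the opposite strand over 608 bp.

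Both cytosolic HSP90 genes, which stabilize kinases and receptors, were called higher in synovium. Hsp90aa1, the inducible form (chr12:110690605-110702728, minus strand), had 8348, 11782 and 6986 normalized counts in synovium, 3616, 3061 and 2205 in arthritic nodes, with 2573, 2577 and 2173 in control nodes. Every synovial library exceeded every node library, and the fitted difference was 1.60 ± 0.20 over arthritic nodes (limma adjusted p = 6.87e-05) and 1.86 ± 0.20 over control nodes (adjusted p = 1.57e-05). Hsp90ab1, the constitutive form (chr17:45567775-45573271, minus strand), had 28598, 48273 and 22399 in synovium, 21840, 20282 and 14875 in arthritic nodes, with 16988, 14904 and 15943 in control nodes. Its synovial libraries were also above all node libraries, with library 3 only just above arthritic node library 1. The difference over arthritic nodes, 0.74 ± 0.23 (limma adjusted p = 0.0239), was not called when synovial library 2 was left out (0.43, adjusted p = 0.0573), nor without arthritic node library 3 (0.58, adjusted p = 0.104) or under quantile normalization (a log2 difference of 0.22). Over control nodes it was 0.98 ± 0.23 (adjusted p = 0.00460).

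Hspd1 and Hspe1 encode the chaperonin and co-chaperonin that fold proteins in the mitochondrial matrix. They sit head to head at chr1:55077835-55088243 (minus strand) and chr1:55088132-55091307 (plus strand), and their exons overlap over 112 bp. Hspd1 had 3760, 4946 and 2783 normalized counts in synovium, 4072, 4005 and 3085 in arthritic nodes, with 3240, 3420 and 2973 in control nodes. The 3 groups overlapped, and the difference between synovium and arthritic nodes was 0.01 ± 0.18 (limma adjusted p = 0.965), turning to -0.03 with TMM scaling and -0.28 with quantile normalization. Hspe1 had 1561, 2298 and 1429 in synovium, 1560, 1246 and 1178 in arthritic nodes, with 1465, 1374 and 1304 in control nodes. Its difference of 0.39 ± 0.18 over arthritic nodes was not called (limma adjusted p = 0.112), but with synovial library 3 left out it was (0.52, adjusted p = 0.0465). Over control nodes neither was called (0.22 ± 0.18, adjusted p = 0.370, for Hspd1 and 0.32 ± 0.18, adjusted p = 0.168, for Hspe1).

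Counted together, 7 of the 10 genes were higher in synovium than in arthritic nodes and 0 lower, where 17.9% of all genes tested were called higher and 33.8% in either direction. Without Hspa1a and Hspa1b the count was 5 of 8, with a median log2 difference of 0.93. The median over all genes tested was near 0. Under quantile normalization the count of the 10 was 5, where 1711 of all 11357 genes were called higher. The median of all genes was then -0.12 (-0.13 over control nodes). With 1 library left out the count of the 10 ranged from 5 to 9, where 1700 to 2090 of 11282 to 11385 genes were called higher. Libraries did not overlap for 6 of the 10, against 25.2% of all genes in that direction. Of these, Hspa1a and Hspa1b passed the filter only through synovium, and the others were Dnaja1, Dnajb1, Hsp90aa1 and Hsp90ab1. Over control nodes 8 of 10 were higher, against 21.6% of all genes and 40.1% called in either direction, and libraries did not overlap for the same 8, against 26.2%. Without Hspa1a and Hspa1b, 6 of 8 were higher over control nodes, and libraries did not overlap for the same 6. The median log2 difference there was 1.33 without Hspa1a and Hspa1b, against 0.02 over all genes. Both counts use the same synovial libraries, so they are not independent.

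Between nodes, arthritic over control, limma called 0 of the 10, where it called 0.343% of all genes and 0.335% higher. At an unadjusted p under 0.05 there were 3 (Hspa1a, Dnaja1 and Dnajb1), against 9.08% of all genes. edgeR's quasi-likelihood test on the recovered reads called 0, against 0.317% of all genes called higher, and DESeq2 called 1, Dnajb1, against 1.2%. The median difference over the 10 was 0.35, against 0.01 over all genes. Hspe1 was at -0.07 ± 0.18, and Hspa1b, at 0.32 ± 0.93, rested on 1 read. The genes largely share an order of libraries, so their differences are not independent. The libraries overlapped between arthritic and control nodes for every one of the 10 genes, while they were apart for 14.9% of all genes.

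**Figure D1:**
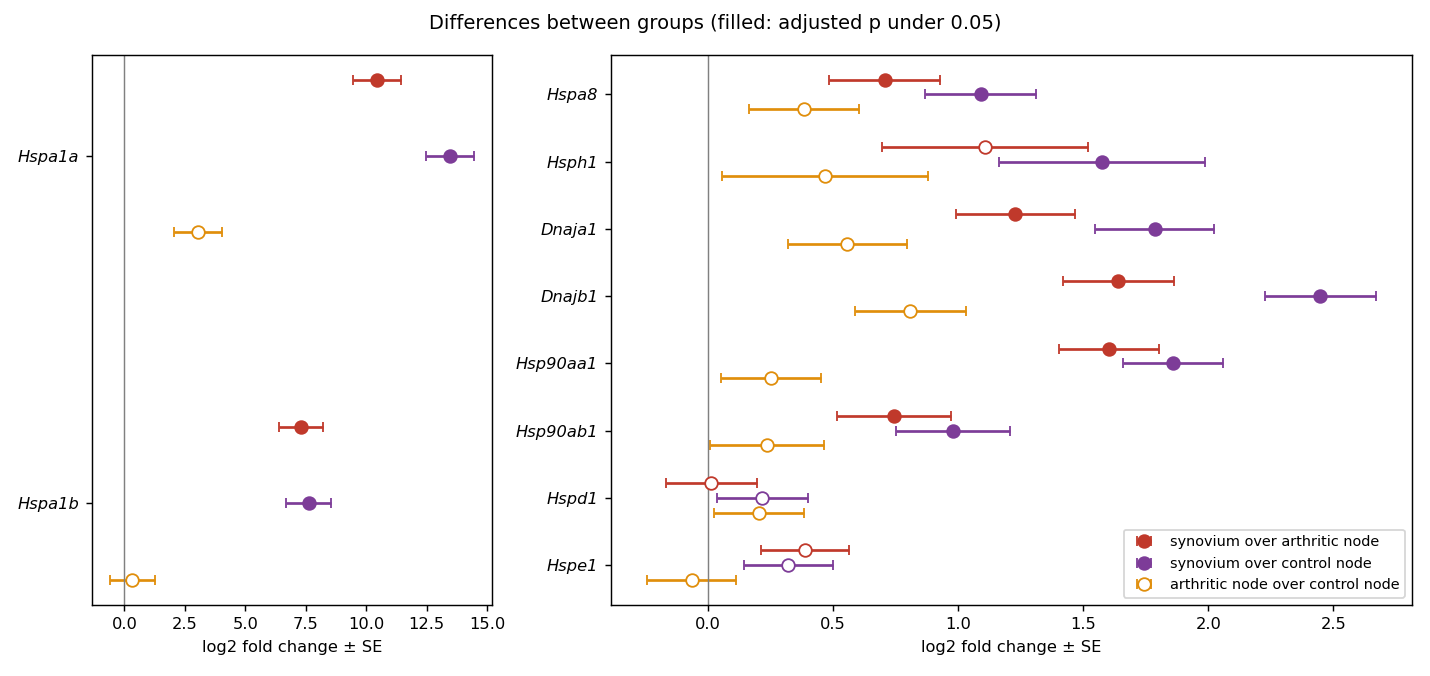
Points show log2 fold changes with their SE for each gene in 3 comparisons, with filled points at an adjusted p under 0.05 and Hspa1a and Hspa1b on a wider scale at left. Differences of synovium over either node lie to the right of 0, with Hspd1 nearest at 0.01 over arthritic nodes, and those between nodes are open points.

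Within groups the genes largely shared an order of libraries. Synovial library 2 was the highest of the 3 for 8 genes, all but Hspa1a and Hspa1b, and synovial library 3 was the lowest for 7. Hspa1a and Hspa1b had another order, with synovial library 3 highest and library 1 lowest. Arthritic node library 3 was the lowest for 9 of 10. The 10 genes together took 0.865%, 1.23% and 0.720% of all normalized counts in synovium, 0.635%, 0.634% and 0.436% in arthritic nodes, with 0.466%, 0.427% and 0.431% in control nodes. The lowest synovial share exceeded the highest node share, and arthritic node library 3 was at the control level. That separation rests on Hspa1a and Hspa1b, which took 0.101% in synovial library 3. Without them this library would lie below arthritic node libraries 1 and 2.

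To set levels of different genes side by side, values were divided by exon length in kilobases, with all annotated exons of a gene merged. That length, for example 8629 bp for Dnaja1 and 2967 bp for Hspa1a, can exceed that of the transcript expressed. Ranks between genes are therefore approximate. On this scale the order changed between synovium and nodes. In synovium Hsp90ab1 (11034 ± 4505 normalized counts per kb, SD, n = 3) and Hspa8 (10109 ± 3708) led and overlapped in range. Dnajb1 (4058 ± 557) and Hspa1a (3873 ± 737) followed, overlapping each other and apart from the genes above and below. Then came Hsp90aa1 (2299 ± 629), Hspd1, Hspe1, Dnaja1 and Hsph1, each overlapping its neighbour, and last Hspa1b (70.7 ± 11.8). In arthritic nodes the leaders were the same, Hsp90ab1 at 6335 ± 1219 and Hspa8 at 6003 ± 1196, but Hspd1 (1408 ± 209) came after them and Hspa1a (5.19 ± 4.78) next to last. Control nodes had Hsp90ab1 at 5317 ± 348 and Hspa8 at 4541 ± 296, then Hspd1, Hspe1, Dnajb1, Hsp90aa1, Dnaja1 and Hsph1.

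Ratios of partners within a library do not depend on scaling. Hsp90aa1 was 29.2%, 24.4% and 31.2% of Hsp90ab1 in synovium, 16.6%, 15.1% and 14.8% in arthritic nodes, with 15.1%, 17.3% and 13.6% in control nodes. The synovial libraries were apart from both node groups, which overlapped. The Hspa1a and Hspa1b sum was 22.8%, 19.3% and 48.9% of Hspa8 in synovium and 0.0671%, 0.0958% and 0% in arthritic nodes, and control nodes had no read of the pair. Dnajb1 was 1.11, 1.08 and 1.95 times Dnaja1 in synovium, against 0.934, 1.10 and 0.970 times in arthritic nodes, which overlapped, with 0.896, 0.900 and 0.734 times in control nodes. Hspd1 was 2.41, 2.15 and 1.95 times Hspe1 in synovium, against 2.61, 3.21 and 2.62 times in arthritic nodes. Control nodes had 2.21, 2.49 and 2.28 times. Synovium and control nodes overlapped, and every arthritic node library was above both groups. With 3 against 3 libraries the smallest p an exact two-sided permutation test can give is 0.10. It was reached in 8 of the 12 tests made, and the adjusted p was 0.15 in each of these.

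**Figure D2:**
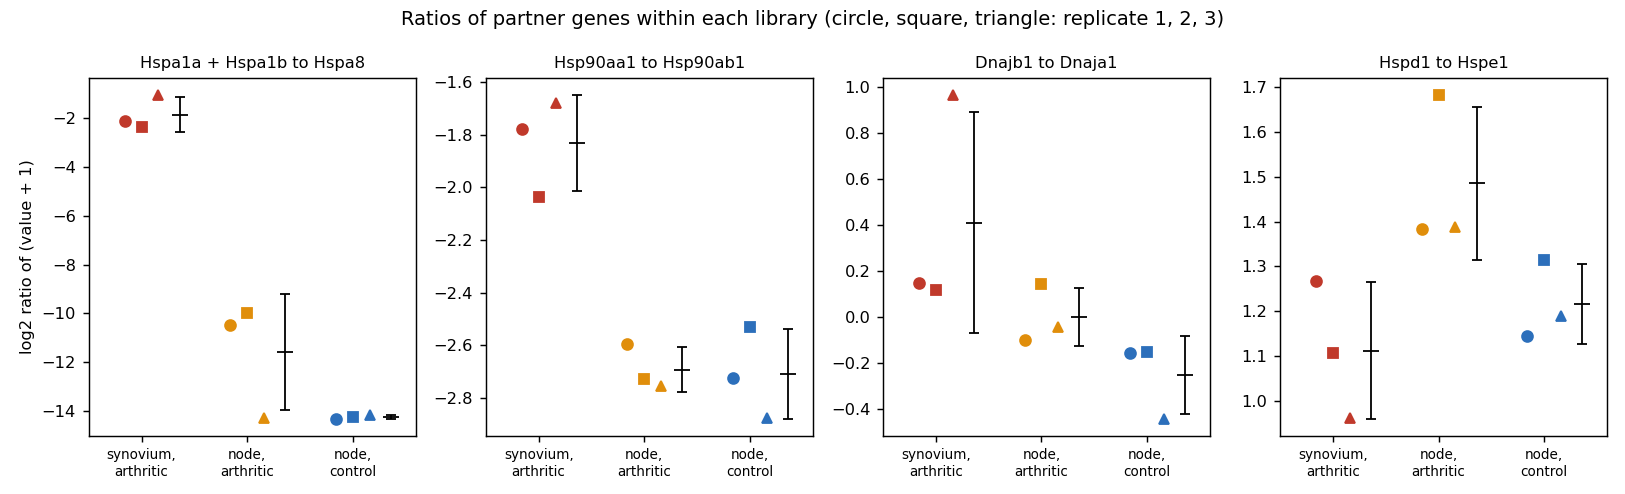
The 4 panels plot log2 ratios of (value + 1) of partner genes within each library, with mean and SD of 3 libraries, synovium left and control nodes right. Hsp90aa1 to Hsp90ab1 and Hspa1a + Hspa1b to Hspa8 are higher in all 3 synovial libraries. Hspd1 to Hspe1 is lower there than in arthritic nodes, while synovium and control nodes overlap.

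Related chaperone genes, in 10 further lists chosen for this pathway, changed in part. In synovium over arthritic nodes, 29 of the 85 genes tested from these lists were called, or 34.1%, against 33.8% of all genes, so that the share was near the background. Of these, 20 or 23.5% were higher, against 17.9% of all genes, and 18 of the 29 were called under every alternative tried. Of the heat shock factors, Hsf2 rose by 1.60 ± 0.31 and Hsf1 fell by 0.67 ± 0.13 among 4 tested (limma adjusted p = 0.00176 and 0.00170). Among 7 other HSP70 and HSP110 genes 4 rose, led by Hspa2 at 928 ± 240 normalized counts in synovial Tregs, against 42.9 ± 33.5 in arthritic node Tregs (4.65 ± 0.53, adjusted p = 3.32e-05). The others were Hspa13, Hspa4 and Hspa4l, the last of these lost without any of 4 single libraries, synovial 1 or 2 or arthritic node 2 or 3 (adjusted p = 0.0667 to 0.0891). Of 14 other cytosolic J-domain genes, Dnajb2, Dnaja4, Dnajb14, Dnajb6 and Dnajb4 rose by 1.39 to 1.88 on the log2 scale, and Dnajc7 fell by 0.61.

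Of the 8 exchange factor and partner genes of HSP70, Bag3 and Bag1 rose. Bag3, which links HSP70 to autophagy, had 462 ± 32.0 normalized counts in synovial Tregs, against 93.5 ± 45.1 in arthritic node Tregs (2.39 ± 0.48, limma adjusted p = 0.00232). Of 13 co-chaperones of HSP90, Unc45a, Ptges3 and Sugt1 rose and Ppid fell, and each of the 4 calls was lost without 1 or more single libraries. For Ppid that was arthritic node library 1 (adjusted p = 0.0501). For Unc45a it was synovial 1 or 3 or arthritic node 1 or 3 (0.0593 to 0.0877), and for Sugt1 synovial 2 or any arthritic node library (0.0519 to 0.0963). For Ptges3 it was synovial 2 or any node library (0.0559 to 0.136). Stip1, which joins HSP70 to HSP90, differed by 0.14 ± 0.22 and Ahsa1, which stimulates the ATPase of HSP90, by 0.15 ± 0.20, neither called (adjusted p = 0.666 and 0.614).

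Of the cytosolic TRiC chaperonin, which folds actin and tubulin, 0 of 8 subunits tested rose, and Cct5 fell by 0.34 ± 0.11 (limma adjusted p = 0.0334), a call lost without synovial library 1 or 3 or arthritic node library 1 or 2 (0.0712 to 0.127). Of 5 prefoldin subunits Vbp1 rose by 0.57 ± 0.10 (adjusted p = 0.000720). Of 8 small heat shock genes 3 passed the filter, and Hspb1 rose and Hspb11 fell. Hspb1 was called in 1 of the 9 fits with a library left out (0.0522 to 0.169 in the other 8). Hspb11 was not called without synovial library 1 or 3 or arthritic node library 1 or 2 (0.0626 to 0.0787). Among 11 other mitochondrial chaperones and proteases 0 rose, and Clpp, Trap1 and Dnaja3 fell, by 0.88, 0.48 and 0.91 on the log2 scale. Over all 11357 genes tested, 2034 were called higher and 1810 lower. Lists of 8 or 11 genes are too small to show a direction against these shares. The call of Dnaja3 was lost without synovial library 1 or arthritic node library 2 (0.0521 and 0.0611).

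In the endoplasmic reticulum list 3 of 12 rose, Dnajb9, Hspa5 and Hsp90b1, and Dnajc3 fell, a share of called genes near the 33.8% of all genes. Hspa5, the HSP70 of that compartment, had 43603 ± 3994 normalized counts in synovial Tregs, against 17864 ± 1805 in arthritic node Tregs (1.29 ± 0.11, limma adjusted p = 2.87e-06). Under quantile normalization Hsp90b1 turned to -0.10, and Dnajc3 was not called without synovial library 1 or 3 or arthritic node library 2 (0.0508 to 0.0583). In the same comparison 14 of 18 immediate-early genes rose and 1, Egr2, fell, against 17.9% of all genes called higher and 33.8% in either direction. Ier3 lost its call without synovial library 3 or arthritic node library 2 (limma adjusted p = 0.0558 to 0.0607), and Socs3 without synovial library 3 or arthritic node library 1 (0.0860 to 0.0966). Dusp1, for example, had 40768 ± 1632 in synovial Tregs, against 3366 ± 842 in arthritic node Tregs (3.62 ± 0.19, limma adjusted p = 6.83e-08). The summed immediate-early list was 147600, 131376 and 187656 in synovium, 31956, 30184 and 24382 in arthritic nodes, with 28565, 28850 and 23979 in control nodes. Synovial library 3 was highest in this sum, as it was in Hspa1a and Hspa1b. The rest of the order differed: synovial library 2 was lowest in the sum, while library 1 was lowest for Hspa1a and Hspa1b. For the other 8 chaperone genes synovial library 2 was the highest. The part of immediate-early genes in the chaperone result was not tested, and tissue and the handling of that tissue before sorting cannot be told apart.

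**Figure D3:**
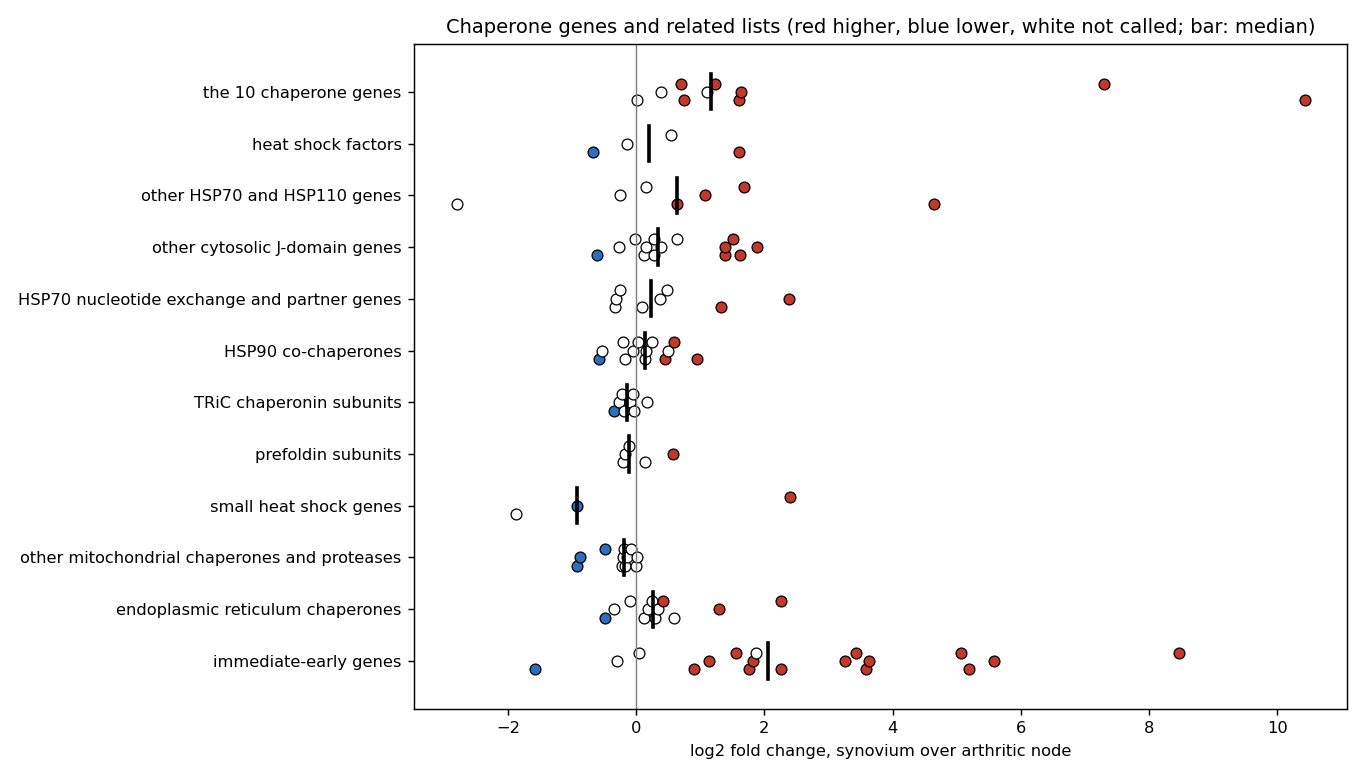
Each point is a gene, placed by its log2 fold change in synovium over arthritic nodes, in rows by list, with red for genes called higher, blue for lower and white for not called, and a bar at each list's median. The 10 chaperone genes have a median of 1.17 and immediate-early genes of 2.06, while the TRiC and other mitochondrial lists lie below 0 at -0.15 and -0.19.

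Between nodes none of the genes in the 10 chaperone lists was called by limma. Over control nodes 36 of the 85 were called, or 42.4%, against 40.1% of all genes, and 21 or 24.7% were higher, against 21.6%, both near the background. Synovium again had Hsf2 higher and Hsf1 lower, 3 of the 7 other HSP70 and HSP110 genes higher (Hspa2, Hspa4 and Hspa13) and Hspa12a lower. Of the J-domain genes 7 of 14 were higher and 2 lower, and Bag3 was higher and Hspbp1 lower. TRiC had 0 higher and 3 lower of 8 (Cct3, Cct5 and Cct8), and the other mitochondrial genes 0 higher and 4 lower of 11 (Trap1, Dnaja3, Dnajc19 and Clpp). Over all 11357 genes tested, 2451 were called higher and 2100 lower than in control nodes, and these lists are too small to show a direction.

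The genes outside these lists whose pattern over the 9 libraries was most like the mean standardized level of the 10 chaperones were Rab14 (Pearson r = 0.99), Pja1 (0.99), Rnf6 (0.98), Arf6 (0.97) and Grap2 (0.97), the first 5 of 8839 genes ranked. These correlations are descriptions, since the libraries share group and depth. Pja1, for example, averaged 6221 ± 3076 in synovium, with 2186 ± 515 in arthritic and 1710 ± 78.8 in control nodes (SD, n = 3).

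In the authors' deposited table for synovium and arthritic nodes, 7 of the 10 chaperone genes had an adjusted p under 0.05, and its calls and signs were the same as those given here for all 10. The authors' deposited table gave log2 fold changes of 9.52 for Hspa1a, 9.24 for Hspa1b and 0.02 for Hspd1.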

How the data were processed

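Samples were grouped and numbered by their titles. Per the labels' protocols, RNA came from Trizol extracts and libraries from a directional NEBNext kit. The submitters' processing notes name HISAT2, HTSeq, DESeq2 and the mm10 genome, while versions, annotation and strand setting are not given in the sources used here. In the deposited table of expression each gene has a normalized signal, a read count divided by 1 factor per library: 100% of values were whole multiples of a constant within 0.01, and reads were recovered from them. The authors' deposited table of their own comparison holds a mean normalized signal, log2 fold changes with errors, a test score and p-values, per the file headers. Intervals and floors (3 reads per library) cover counting error only.

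Tests were made with limma 3.58.1 in R 4.3.3 (lmFit, eBayes with trend) on log2(value + 1) in all 9 libraries, for the 11357 genes whose mean reached 10. They were two-sided with Benjamini-Hochberg adjustment, and called under 0.05. Fold changes on this scale understate low genes. The sum of Hspa1a and Hspa1b was tested in place of the 2 genes. Positions are from the GENCODE annotation of GRCm38, and promoters from RefSeq (GRCm38.p6).

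In synovium over arthritic nodes pairing by mouse comes from the titles. Deviations from the group means correlated at 0.02, 0.05 and 0.09 within the pairs, and 3 of 3 synovial libraries matched the node library of their own number best. Arthritic and control node libraries, from different mice, also matched best by number for replicates 2 and 3 (0.07 each), though not for replicate 1 (0.005). Synovial and control node libraries did so for replicate 3 alone (0.05). The match therefore cannot show that same-numbered libraries come from 1 animal. Alternatives were pseudocounts of 0.5 and 5, no filter or a mean of 50, no trend, only the 2 groups compared, TMM or quantile scaling, edgeR 4.0.16 and DESeq2 1.42.0 on recovered reads, the replicate block, and each library left out. The genes and lists were chosen with earlier results of these data known. Named were all 10 genes, called genes of each list with the largest changes, well-known members of a list, and the 5 genes most alike. Called genes past the first 3 of a list were named after their values were seen, as were single markers of other cells. The script was tested on simulated counts.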

Additional observations from a re-analysis of the deposited data

How the results depend on the processing

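Synovium over arthritic nodes kept Hspa1a, Hspa1b, their sum, Dnaja1, Dnajb1 and Hsp90aa1 called under every alternative. The count of called chaperone genes was 5 to 9 with 1 library left out, where 1700 to 2090 of all genes tested were called higher. Reversed, none of them called, were Hspd1 over arthritic nodes (-0.026 with TMM, -0.28 with quantile scaling, and -0.19 to 0.22 with a library left out), Hspd1 over control nodes (-0.076 with quantile scaling) and Hspa1b between nodes (-0.10 with quantile scaling, resting on 1 read). Hspe1 between nodes ranged from -0.19 to 0.015 and the log2 ratio of Hsp90aa1 to Hsp90ab1 between nodes from -0.065 to 0.107 with a library left out. Hsp90b1 turned to -0.10 with quantile scaling. Between nodes DESeq2 called 1 of the 10 genes, where it called 173 of all 11357. Leaving out single libraries gave 0 to 1 by limma, where 0 to 64 of all genes tested were called. The fit that gave 1, without arthritic node library 3, called 1 of all 11370. The sum of Hspa1a and Hspa1b between nodes ranged from 2.13 to 4.58, called without arthritic node library 3 alone, the library at 0. Over control nodes Hspd1 was called without synovial library 3 (0.43, adjusted p = 0.0485 by limma), and Hsp90ab1 was not with quantile scaling (0.49, adjusted p = 0.0765). Without the trend Hspa8 and Hsp90ab1 lost their calls over arthritic nodes (adjusted p = 0.0990 and 0.0920 by limma). The causes were not tested. With the replicate block, where the number is shared by title only, limma called 0 of the 10 between nodes, where it called 0 of all 11357 genes, and 8 over control nodes, where it called 4204 of all genes. The correlations within those pairs were -0.019 to 0.070. In synovium over arthritic nodes the block added Hsph1 and changed no other call. Hsph1 was also called with a pseudocount of 5 and with a filter at a mean of 50 (adjusted p = 0.0459 and 0.0462 by limma). TMM was not run for the ratios, which scaling leaves unchanged. Depth limits Hspa1a and Hspa1b in nodes, where 51 reads were found in all.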
